A study of Homo sapiens with 6 samples.

Results

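The genes of the proteasome were compared between oxaliplatin-treated and untreated HCT116 cells. Members were the genes whose symbol is PSM followed by a letter from A to G and a number, a rule that used no measured value. It found 48 of the 27942 genes in the table, and 46 of them were among the 13727 genes with enough counts to be tested. HCT116 is an established human colorectal cancer line with wild-type p53, grown in RPMI medium with fetal bovine serum. Poly(A) RNA was sequenced in 3 libraries of cells that received no treatment (NT) and 3 of cells treated with 0.5 µM oxaliplatin, a platinum drug that crosslinks DNA, for 24 h (OXA). The labels list penicillin and streptomycin in the medium of all 6 libraries, whereas the study's methods say that antibiotics were avoided. Neither source says whether the replicates came from separate thaws or days, so p-values measure the spread between these libraries, which may be technical.

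The proteasome degrades proteins that carry ubiquitin chains, and it is the route by which many short-lived regulators, p53 and phosphorylated YAP and TAZ among them, are removed. Its core particle is a barrel with outer rings of alpha subunits, which gate the entrance, and inner rings of beta subunits, some of which cut peptide bonds. A regulatory particle caps the barrel: the ATPases of its base unfold the substrate, and its lid removes the ubiquitin. Dedicated chaperones assemble both particles, other activators can replace the cap, and in cells exposed to interferon the immunoproteasome subunits PSMB8, PSMB9 and PSMB10 take the place of PSMB5, PSMB6 and PSMB7. When proteasome activity falls, the transcription factor NFE2L1 is known to raise expression of the subunit genes.

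Library totals lay between 32979521 and 40967880 counts. NT 1 stood apart from the other libraries, since GC content and transcript length accounted for 0.506 of the variance of its deviations from the mean over all libraries (R2), against 0.175 in NT 2, 0.294 in OXA 2 and at most 0.0418 in the remaining 3. Results are therefore also given without NT 1 and with these trends removed. Epithelial markers matched the label, with mean normalized counts of EPCAM of 9963 ± 1012 in NT and 9689 ± 802 in OXA (± SD, n = 3), although the intestinal markers KRT20 and VIL1 were low, at means of 46.1 and 79.2 in NT. PTPRC, which marks leukocytes, had at most 2 raw counts in any library, and the fibroblast markers DCN and LUM had 0 in all 6. Among other markers on these lists, CD68 had 152 to 237 and COL1A1 107 to 273 raw counts, and CD3E, CD14, COL1A2 and COL3A1 had at most 9 in any library. The 8 epithelial markers together took 0.218 to 0.316% of the counts in NT and 0.341 to 0.415% in OXA, but single markers differed in direction. On the log2 scale 4 were higher in OXA, KRT19 by 1.29 (edgeR adjusted p = 0.0616), KRT8 by 0.47, KRT18 by 0.31 and CDX2 by 0.24. The other 4 were negative, EPCAM at -0.04, CDH1 at -0.20, VIL1 at -0.38 and KRT20 at -0.48. Of all 8, 0 passed edgeR's test described below, 1 passed DESeq2 and 3 had an unadjusted p under 0.05, all 3 higher. Of all genes, 4.61% were higher by DESeq2 and 10.7% at that unadjusted p. The part of these markers in the results was not tested.

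Proteasome mRNA was modestly higher after oxaliplatin, with positive values for most subunit genes. The log2 fold change (log2FC) of OXA over NT, given below with its standard error (SE), was positive for 40 of the 46 tested members (87.0%), against 53.3% of all genes tested, and its median was 0.18 (range -0.40 to 0.62) against 0.023 for all genes. Together the 48 genes took 0.793, 0.739 and 0.773% of the counts in NT 1, 2 and 3, and 0.874, 0.834 and 0.899% in OXA 1, 2 and 3. The shares of the groups did not overlap. In bulk RNA, a larger amount per cell and a larger proportion of cells with high levels cannot be told apart.

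Single members rarely passed the test across all genes. In edgeR's quasi-likelihood test, with p-values adjusted over all genes by Benjamini-Hochberg, 3 members rose (PSMC4, PSMB6 and PSMB5) and 0 fell, where 2.78% of all genes were called higher and 2.29% lower. At an unadjusted p-value under 0.05, 15 members were higher and 0 lower, beside 10.7% and 11.1% of all genes. DESeq2 called 8 members higher and 0 lower (4.61% and 4.63% of all genes), and limma-voom called 3 higher and 0 lower (2.73% and 2.11%). The OXA libraries were all higher than the NT libraries in 17 members and all lower in 0, whereas 14.5% and 14.4% of all genes separated in this way. Without NT 1, edgeR called 5 members, adding PSMB7 and PSMD13, and the median was 0.23. Without NT 2 it called PSMC4 alone, and without any 1 of the other 4 libraries it called 0. Calls dropped among all tested genes in those fits. Leaving out NT 2 gave 153 up and 146 down, NT 3 gave 115 and 69, and OXA 1 gave 66 and 19. For OXA 2 the totals were 94 and 32, and for OXA 3 they were 102 and 67. The full set gave 381 and 315, and dropping NT 1 gave 623 and 571. A member count of 0 is near so small a background and does not set the proteasome genes apart.

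NT and OXA libraries of the same number deviated in the same way from their group means, and more members were called when the replicate number entered as a block. With the block 21 members were higher and 0 lower, beside 12.1% and 10.9% of all genes. With the block and with each library's trends on GC content and length removed, 31 were higher and 3 lower (PSMB9, PSMD14 and PSME1), beside 22% and 22.6% of all genes, and the median was 0.17 against -0.0049 for all genes.

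**Figure D1:**
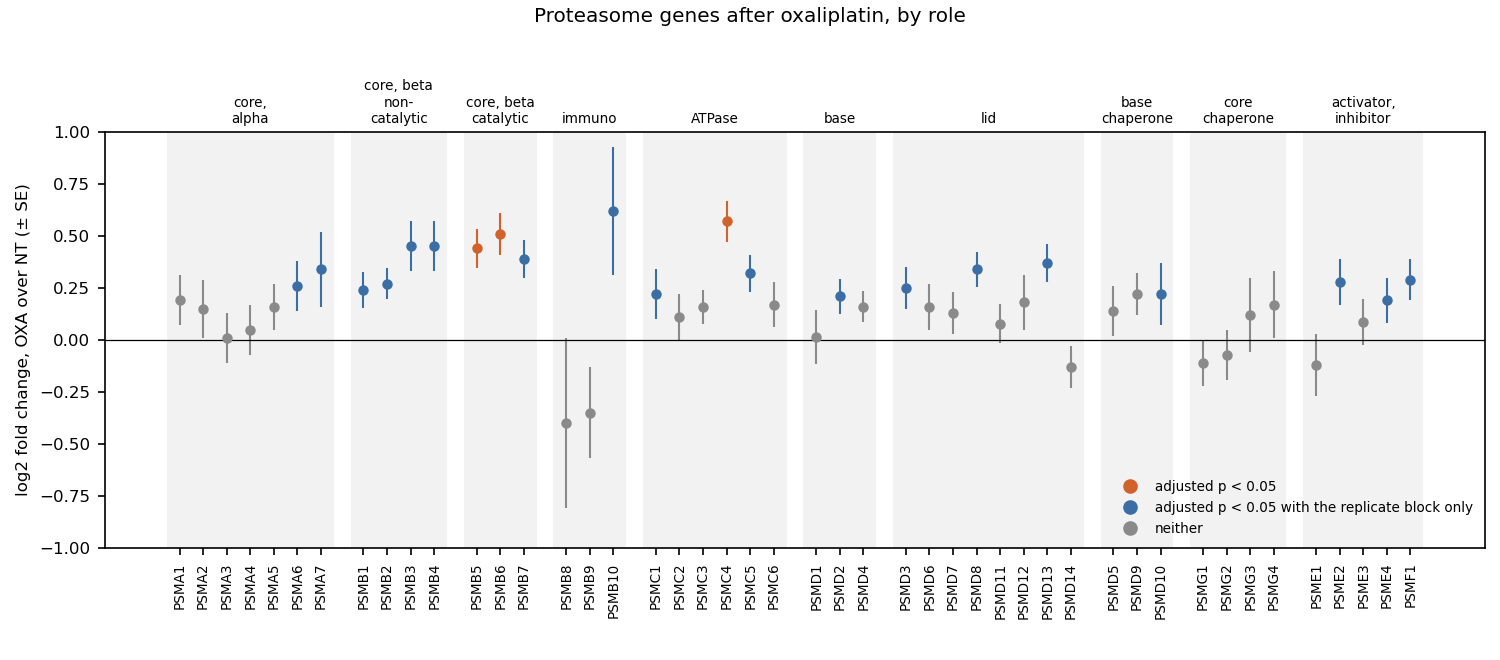
Log2FC of OXA over NT (y axis) with its SE for each of the 46 tested proteasome genes (x axis), grouped by role, from 3 libraries per group. Orange points had an edgeR adjusted p-value under 0.05, blue points only in the fit with the replicate block and grey points in neither; the 7 constitutive beta subunits lie between 0.24 and 0.51, and the lowest point is PSMB8 at -0.40.

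The 7 constitutive beta subunits had a median log2FC of 0.44 and a range of 0.24 to 0.51. Of these genes, 2 rose by edgeR, 5 by DESeq2 and all 7 in the fit with the block, and in each of the 7 the lowest OXA library lay above the highest NT library. The shares of all genes called higher were 2.78% by edgeR, 4.61% by DESeq2 and 12.1% with the block. For 14.5% of all genes the OXA libraries lay above the NT libraries. The sum of the counts of the 7 beta genes was 0.147, 0.152 and 0.161% of the library in NT and 0.191, 0.188 and 0.203% in OXA. Their median stayed between 0.35 and 0.48 with each library left out in turn and was 0.30 with the GC and length trends removed.

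PSMB6 (ENSG00000142507, chr17:4796144-4798502, + strand, positions of genes from GENCODE 44 on GRCh38) encodes the catalytic subunit with caspase-like activity. Its normalized counts were 5109, 6061 and 6240 in NT 1, 2 and 3 and 8228, 7997 and 8650 in OXA 1, 2 and 3. All OXA libraries lay above all NT libraries, and NT 1 was the lowest. The mean rose from 5803 ± 608 to 8292 ± 331 (SD, n = 3), a log2FC of 0.51 (SE 0.10, edgeR adjusted p = 0.0314, 0.00730 with the block). Left-out libraries gave a log2FC of 0.43 to 0.54, and the adjusted p stayed under 0.05 only without NT 1.

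PSMB5 (ENSG00000100804, chr14:23016543-23035230, - strand) encodes the subunit with chymotrypsin-like activity, the main target of bortezomib. It had 7278, 7610 and 8211 normalized counts in NT and 10547, 9656 and 11230 in OXA. The groups were again separate. Its mean went from 7700 ± 473 to 10478 ± 789, a log2FC of 0.44 (SE 0.094, edgeR adjusted p = 0.0413, 0.00673 with the block). It passed in 1 of the 6 fits with a library left out, that without NT 1, and did not pass with the authors' gene-specific normalization factors (adjusted p = 0.0811) or with no filter on low counts (0.0508).

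PSMB7 (ENSG00000136930, chr9:124353465-124415444, - strand), which encodes the subunit with trypsin-like activity, had 6834, 6111 and 6618 normalized counts in NT and 9122, 7968 and 8466 in OXA. In this gene NT 1 was the highest of the untreated libraries, not the lowest, and the groups were still separate. The log2FC was 0.39 (SE 0.091), with an edgeR adjusted p of 0.0547, a DESeq2 adjusted p of 0.0149 and 0.00609 in edgeR with the block.

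PSMB1, PSMB2, PSMB3 and PSMB4 are the beta subunits without a catalytic site of their own. PSMB2 was the least variable, with 9924, 10069 and 9735 normalized counts in NT and 11934, 11977 and 11876 in OXA (log2FC 0.27, SE 0.074, edgeR adjusted p = 0.0847). PSMB3 had 4801, 5565 and 6266 in NT and 7211, 7104 and 8346 in OXA (log2FC 0.45, SE 0.12, edgeR adjusted p = 0.0799). PSMB4 had 7668, 8665 and 10134 in NT and 11497, 11503 and 13180 in OXA (log2FC 0.45, SE 0.12, edgeR adjusted p = 0.0791). Both genes were lowest in NT 1 and highest in OXA 3, and their groups did not overlap. PSMB1 differed least, with 10656, 9711 and 9923 in NT and 12040, 11225 and 12404 in OXA (log2FC 0.24, SE 0.085, edgeR adjusted p = 0.158). None of the 4 passed edgeR's test over all genes, PSMB3 and PSMB4 passed in DESeq2 (adjusted p = 0.0180 and 0.0161), and all 4 passed with the block.

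**Figure D2:**
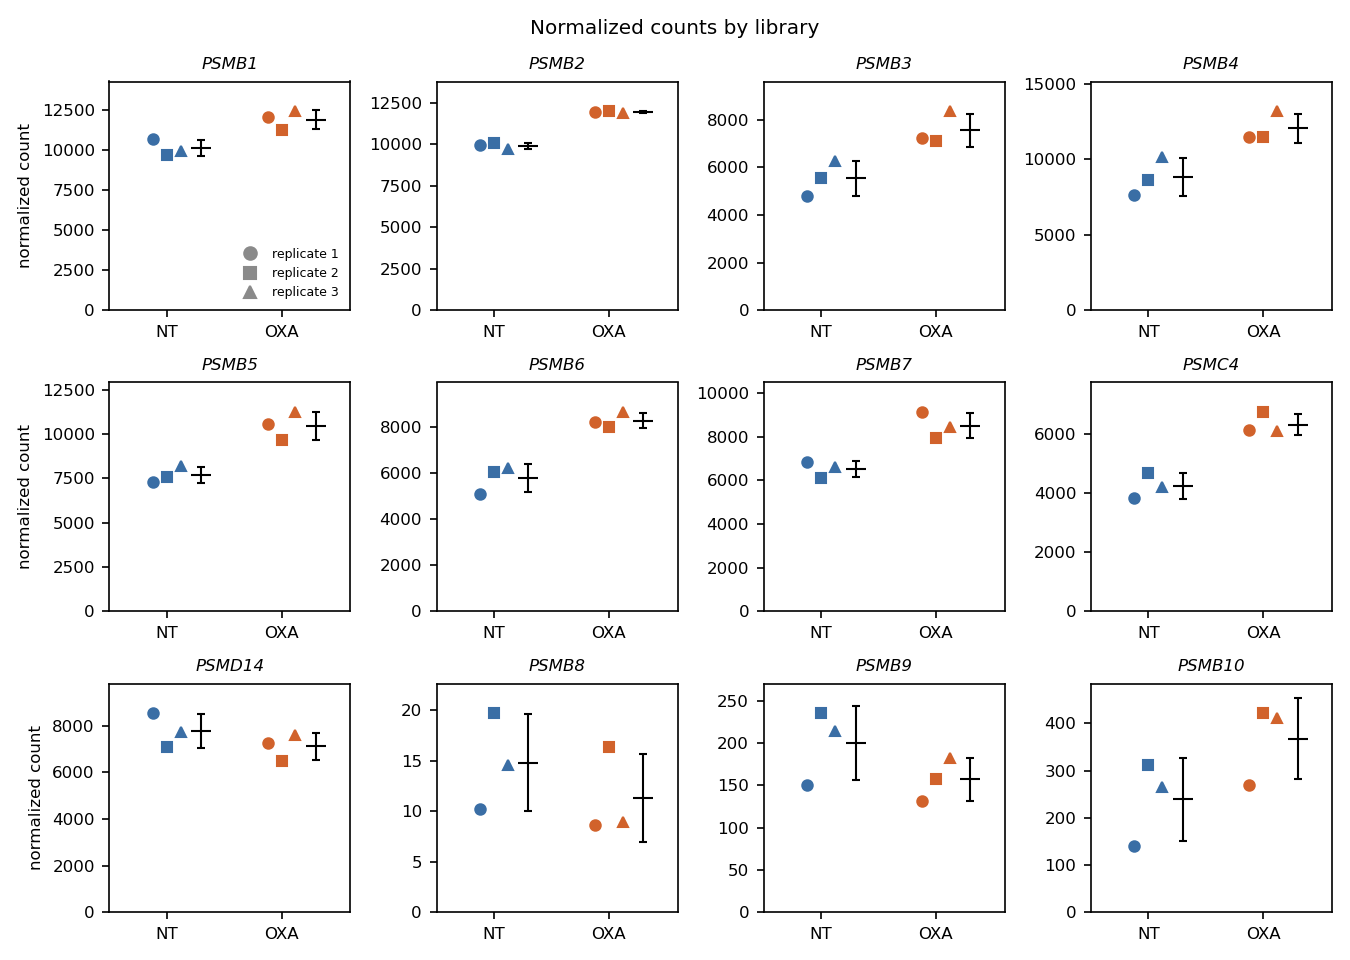
Normalized counts (y axis, from 0) of 12 proteasome genes in each NT (blue) and OXA (orange) library, with the replicate number as the symbol and the mean ± SD of 3 libraries as a black bar. OXA and NT do not overlap in PSMC4 and in PSMB1 to PSMB7, and they overlap in PSMD14, PSMB8, PSMB9 and PSMB10.

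The 7 alpha subunits PSMA1 to PSMA7 had a median log2FC of 0.16, and 0 passed edgeR or DESeq2, 0 had an unadjusted p under 0.05 and in 0 did the groups separate. Among all genes, 2.78% were higher by edgeR, 4.61% by DESeq2 and 10.7% at that unadjusted p, and 14.5% separated upward. With 7 genes, counts of 0 are near these shares. The values were 0.34 for PSMA7, 0.26 for PSMA6, 0.19 for PSMA1, 0.16 for PSMA5, 0.15 for PSMA2, 0.049 for PSMA4 and 0.009 for PSMA3. Only PSMA6 and PSMA7 passed with the block (adjusted p = 0.0205 and 0.0220), and 6 of the 7 passed with the trends also removed, all but PSMA3. Beside these counts, 12.1% and 22% of all genes were higher in these fits. PSMA3 was negative with upper-quartile factors, library totals and the authors' factors. With libraries left out, PSMA2 was negative without NT 2 (-0.0025), PSMA4 without NT 2, NT 3 or OXA 1 (-0.047 to -0.017) and PSMA3 without NT 2, NT 3, OXA 1 or OXA 3 (-0.097 to -0.038), and PSMA7 was at 0.17 without NT 1 and 0.20 without OXA 3. The difference between the alpha and beta rings was not tested.

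The ATPases of the regulatory particle pull substrates into the core. PSMC4 (ENSG00000013275, chr19:39971165-39981764, + strand), one of these 6 ATPases, had the largest log2FC among the members called. It had 3840, 4697 and 4224 normalized counts in NT 1, 2 and 3 and 6138, 6745 and 6108 in OXA 1, 2 and 3. The lowest treated library lay well above the highest untreated one. The mean rose from 4254 ± 430 to 6330 ± 359, 1.49-fold (log2FC 0.57, SE 0.10, edgeR adjusted p = 0.0228, 0.00343 with the block and 0.000155 by DESeq2). Between same-numbered libraries the log2 difference was 0.68, 0.52 and 0.53. The log2FC lay between 0.51 and 0.62 with any library left out and was 0.48 with the trends removed, but the adjusted p passed only without NT 1 or NT 2 and reached 0.108 in the other fits.

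The other 5 ATPase genes had log2FC values of 0.32 (PSMC5), 0.22 (PSMC1), 0.17 (PSMC6), 0.16 (PSMC3) and 0.11 (PSMC2), and none passed edgeR's test. PSMC5 (edgeR adjusted p = 0.0839) and PSMC1 (0.344) passed with the block, at adjusted p-values of 0.00947 and 0.0391. The groups separated in PSMC3, PSMC4 and PSMC5, although PSMC3 was at 0.015 with the block and the trends removed. Of all genes 14.5% separated upward, and 12.1% were higher with the block. PSMC4 had the largest value of the ring, in which the 6 ATPases occur in equal number, and the difference between the genes was not tested.

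The promoters of PSMC4 and PSMB5 are shown as those of called members, PSMB6, the third, having no window, together with those of the uncalled beta genes PSMB3 and PSMB4 and of PSMB9, an immunoproteasome gene with a negative log2FC. PSMB5 has a pair of start sites. Each sequence holds the 150 bases before the transcription start in RefSeq (GRCh38.p14), read 5′ to 3′ on the gene's strand, with motif matches in capitals.
PSMC4 (chr19:39971015-39971164, + strand): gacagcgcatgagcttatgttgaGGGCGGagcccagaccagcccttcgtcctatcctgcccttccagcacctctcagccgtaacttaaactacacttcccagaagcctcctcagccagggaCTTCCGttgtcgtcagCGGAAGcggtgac
PSMB5 (chr14:23035221-23035370, - strand): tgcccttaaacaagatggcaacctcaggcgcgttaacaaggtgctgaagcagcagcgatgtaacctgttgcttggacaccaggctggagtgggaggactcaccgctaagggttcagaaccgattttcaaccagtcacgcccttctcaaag
PSMB5 (chr14:23034901-23035050, - strand): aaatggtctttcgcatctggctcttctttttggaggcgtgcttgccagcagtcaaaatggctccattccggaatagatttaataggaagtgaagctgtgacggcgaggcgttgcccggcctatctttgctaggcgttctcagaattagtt
PSMB3 (chr17:38752591-38752740, + strand): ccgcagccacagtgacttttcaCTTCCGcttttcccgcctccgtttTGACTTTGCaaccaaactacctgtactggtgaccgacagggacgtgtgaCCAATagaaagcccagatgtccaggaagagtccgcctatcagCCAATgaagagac
PSMB4 (chr1:151399423-151399572, + strand): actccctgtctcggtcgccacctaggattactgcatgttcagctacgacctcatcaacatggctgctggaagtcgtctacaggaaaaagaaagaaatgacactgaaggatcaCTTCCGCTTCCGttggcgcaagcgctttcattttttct
PSMB9 (chr6:32854042-32854191, + strand): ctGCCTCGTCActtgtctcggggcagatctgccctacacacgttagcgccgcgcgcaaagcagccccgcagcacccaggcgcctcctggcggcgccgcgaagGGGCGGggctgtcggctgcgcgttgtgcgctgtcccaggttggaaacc
The capitals mark TGACNNNGC, the core of the antioxidant response element that NFE2L1 binds (TGACTTTGC in PSMB3, reversed as GCCTCGTCA in PSMB9), CCAAT, the NF-Y box (in PSMB3), GGGCGG, the GC box (in PSMC4 and PSMB9), and CGGAAG, an ETS core that was added after the sequences had been read (CGGAAG or, reversed, CTTCCG). Neither PSMB5 stretch held any of these motifs, and no stretch held the E box CACGTG, which was searched as well. Both strands were searched, and matches of different motifs may share bases.

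Promoter windows of 250 bases before the start and 50 after it were at hand for 42 of the 48 members, 8 of them with several windows. TGACNNNGC was present in 15 of the 42 (35.7%), against 13.3% of all 35116 windows and 19.4% of the tested genes with a window. Of the constitutive beta genes PSMB3 held it and PSMB2, PSMB4 and PSMB5 did not, while PSMB1, PSMB6 and PSMB7 had no window, and in PSMC4 it began 28 bases after the start. CCAAT was present in 47.6% of the members (34.6% of windows, 43.2% of tested genes), GGGCGG in 69% (45% and 77.6%) and CACGTG in 7.14% (7.26% and 12.5%). CGGAAG was present in 59.5% (19.5% and 38%), but it was chosen after members' sequences had been read, so its share is not a fair comparison. A gene counted if any of its windows held the motif, so members compare with the share of tested genes rather than of windows. These shares describe letters in a window and do not show binding.

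The base of the regulatory particle also holds the scaffold subunits PSMD1 and PSMD2 and the ubiquitin receptor PSMD4. PSMD4 (ENSG00000159352, chr1:151254709-151267479, + strand) had 7052, 6876 and 7102 normalized counts in NT and 7897, 7647 and 7926 in OXA. These libraries were close within each group and separate between them. The log2FC was small, at 0.16 (SE 0.075, edgeR adjusted p = 0.272, 0.0549 with the block), and 0.033 with the trends removed as well (adjusted p = 0.574). PSMD2, which had the highest count of all members, had 24130 ± 821 in NT and 27949 ± 1677 in OXA (log2FC 0.21, edgeR adjusted p = 0.204, 0.0274 with the block). For PSMD1 the log2FC was 0.014, and it was negative with upper-quartile factors or library totals.

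The 8 lid genes had a median log2FC of 0.17. None passed edgeR's test, 3 had an unadjusted p under 0.05 (PSMD3, PSMD8 and PSMD13), DESeq2 called PSMD8 and PSMD13, and the block called PSMD3, PSMD8 and PSMD13. All of these were higher, beside 10.7% of all genes at the unadjusted p, 4.61% by DESeq2 and 12.1% with the block. PSMD13 had the largest value among these structural subunits, with 8034 ± 336 normalized counts in NT and 10417 ± 777 in OXA (log2FC 0.37, SE 0.090, edgeR adjusted p = 0.0578). PSMD8 followed at 0.34 (SE 0.085, edgeR adjusted p = 0.0632) and PSMD3 at 0.25 (edgeR adjusted p = 0.198). The lid subunits PSMD12, PSMD6, PSMD7 and PSMD11 lay at 0.18, 0.16, 0.13 and 0.077. With the trends removed as well, PSMD3 fell short (log2FC 0.098, adjusted p = 0.103), and PSMD8 passed at a log2FC of 0.17 (adjusted p = 0.00889). In that fit PSMD12, PSMD13, PSMD6 and PSMD7 passed too, at 0.28, 0.28, 0.13 and 0.11, and PSMD11 did not (0.11, adjusted p = 0.0526). Of all genes 22% were higher in it.

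PSMD14 (ENSG00000115233, chr2:161308425-161411717, + strand), the lid's deubiquitinase, was the only lid gene with a negative value. It had 8521, 7070 and 7718 normalized counts in NT and 7242, 6468 and 7598 in OXA. The groups overlapped, although each OXA library was below the NT library of the same number. The log2FC was -0.13 (SE 0.10, edgeR adjusted p = 0.534, 0.160 with the block), and with the block and the trends removed it remained -0.13 and passed, at an adjusted p of 0.0205. Left-out libraries gave -0.23 to -0.058.

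None of the 7 assembly chaperones passed edgeR or DESeq2, which called 2.78% and 4.61% of all genes higher. PSMD5, PSMD9 and PSMD10, which hold the ATPases during assembly of the base, had log2FC values of 0.14, 0.22 and 0.22. PSMD10 passed with the block (adjusted p = 0.0315) and 0 of the 3 without it. With the block and the trends removed all 3 passed as higher in edgeR (adjusted p = 0.00168, 0.0166 and 0.00194). Of all genes, 12.1% were higher with the block and 22% with the trends also removed. The groups separated in PSMD9, as they did upward in 14.5% of all genes. The core chaperones PSMG1 and PSMG2, which act as a pair, had log2FC values of -0.11 and -0.071, and those of their partners PSMG3 and PSMG4 were 0.12 and 0.17. PSMG3 was negative without NT 1 (-0.061) and with the block and the trends removed (-0.05). None of these 4 passed any of the fits named so far, 0 had an unadjusted p under 0.05, and their median was 0.026. At that unadjusted p 10.7% of all genes were higher and 11.1% lower.

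Among the alternative activators, PSME1 and PSME2, which form a ring together and are known interferon targets, went in different directions. PSME1 had a log2FC of -0.12 (SE 0.15, edgeR adjusted p = 0.705), with 3976, 3778 and 5079 normalized counts in NT and 3699, 3440 and 4656 in OXA. Each OXA library was 0.10 to 0.14 lower on the log2 scale than its same-numbered NT library, and the gene passed as lower only with the block and the trends removed (adjusted p = 0.000902). PSME2 had 2433, 2439 and 2843 in NT and 3101, 2791 and 3478 in OXA (log2FC 0.28, SE 0.11, edgeR adjusted p = 0.206, 0.0213 with the block). These genes are neighbours on chromosome 14, 4394 bp apart. The nuclear activator PSME3 had a log2FC of 0.087 and PSME4, the activator linked to histone degradation, 0.19 (0.0420 with the block). PSMF1, a regulator first described as an inhibitor, was at 0.29 (SE 0.10, edgeR adjusted p = 0.155, 0.0189 with the block), and only in PSMF1 of these 5 did the groups separate. Of all genes 14.5% separated upward, and 12.1% were higher with the block. With the trends also removed, PSME2, PSME4 and PSMF1 passed as higher in edgeR (adjusted p = 0.0152, 0.000488 and 0.000271) and PSME3 did not (0.106). In that fit 22% of all genes were higher and 22.6% lower.

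The immunoproteasome subunits were scarce in these cells. The level was expressed as counts per kilobase of the canonical transcript per 1000000 counts, so that genes could be compared. On this scale the 14 constitutive core genes had a median level of 181 in NT and ran from 42.5 (PSMA5) to 319 (PSMB1), whereas PSMB10, PSMB9 and PSMB8 had 6.91 ± 2.56, 5.55 ± 1.23 and 0.373 ± 0.121 (SD, n = 3). The 17 regulatory subunits had a median level of 98.1, from 40 (PSMC6) to 233 (PSMD2). The core chaperones lay between 7.25 (PSMG4) and 44.4 (PSMG2), the base chaperones between 11.4 (PSMD9) and 38.5 (PSMD10) and the activators between 16.3 (PSMF1) and 125 (PSME1). The levels depend on the transcript length used: with the longest transcript the core and regulatory medians were 129 and 72.9, and with the union of exons 85.4 and 43.9. The core genes had the highest median of these 6 groups and the immunoproteasome genes the lowest with each of the 3 lengths.

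**Figure D3:**
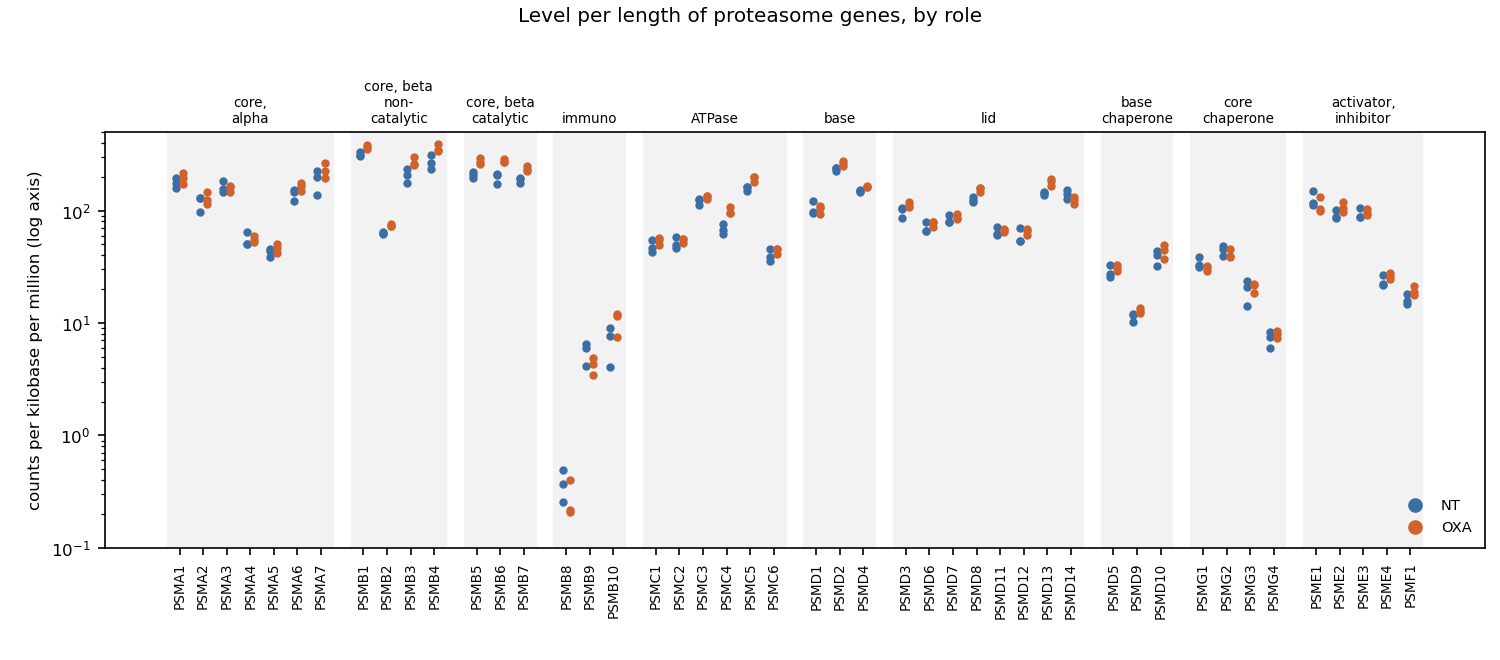
Level per length of the 46 tested proteasome genes (x axis, grouped by role) as counts per kilobase per 1000000 counts on a log y axis, with 1 point per NT (blue) and OXA (orange) library. The immunoproteasome genes PSMB8, PSMB9 and PSMB10 lie at 0.373, 5.55 and 6.91 in NT, below the 14 constitutive core genes, whose levels start at 42.5.

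PSMB10 (ENSG00000205220, chr16:67934506-67936864, - strand) had the largest log2FC of all members in the comparison of all 6 libraries but did not pass. It had 141, 311 and 266 normalized counts in NT and 269, 421 and 412 in OXA. OXA 1 lay within the NT range, and replicate 1 was lowest in both groups. The mean was 239 ± 88.0 in NT and 367 ± 84.9 in OXA (log2FC 0.62, SE 0.31, edgeR adjusted p = 0.293), with an adjusted p of 0.0207 with the block. Without NT 1 the log2FC was 0.35, and with the block and the trends removed it was 0.41, below the values of PSMC4 in the same settings, 0.51 and 0.48.

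PSMB9 (ENSG00000240065, chr6:32844136-32859851, + strand) had 151, 235 and 214 normalized counts in NT and 131, 158 and 182 in OXA. Each OXA library was below its same-numbered NT library, but NT 1 lay within the OXA range. The log2FC was -0.35 (SE 0.22, edgeR adjusted p = 0.404, 0.118 with the block), and -0.47 with the trends also removed (adjusted p = 0.00857). PSMB8 (ENSG00000204264, chr6:32840717-32844679, - strand) had raw counts of 10, 19 and 16 in NT and 8, 15 and 10 in OXA, a log2FC of -0.40 (SE 0.41, edgeR adjusted p = 0.632). The SE was as large as the log2FC, at few counts. PSMB8 and PSMB9 overlap by 544 bp on opposite strands. PSMB9 also overlaps TAP1 by 8608 bp. These are overlaps of whole gene spans, introns included. The RefSeq start of PSMB9 used above, after base 32854191, lies beyond the ends of PSMB8 (32844679) and TAP1 (32853816). Only PSMB9 transcripts that begin earlier overlap those genes. The strand setting of the counting is not given in the sources used here, so shared reads may affect these genes. On their own strand, PSMB10 (by 1512 bp), PSMA1, PSMA2, PSMA6, PSMC2 and PSMD9 overlap other protein-coding genes. The effect of these overlaps on the counts was not tested.

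The tissue-restricted core genes were at the detection limit. PSMA8, the testis form of an alpha subunit, had raw counts of 0, 0 and 0 in NT and 0, 0 and 1 in OXA. PSMB11, the thymus form of the chymotrypsin-like subunit, had 1, 0 and 0 in NT and 0, 0 and 0 in OXA. Neither was tested.

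Within each library, the counts of an immunoproteasome subunit were set against those of the constitutive subunit it replaces. PSMB9 was 2.96, 3.88 and 3.44% of PSMB6 in NT and 1.59, 1.98 and 2.1% in OXA, and the groups did not overlap. On the log2 scale the ratio was -4.88 ± 0.19 in NT and -5.74 ± 0.21 in OXA, a difference of -0.86 (exact two-sided permutation test, p = 0.10, the smallest that 3 against 3 allows, adjusted p = 0.30 over the 3 ratios). In it the called rise of PSMB6 was joined by the negative fold change of PSMB9, which did not pass by itself. PSMB8 was 0.14, 0.259 and 0.178% of PSMB5 in NT and 0.0821, 0.169 and 0.0793% in OXA (log2 difference -0.85, exact permutation p = 0.20, adjusted p = 0.30). PSMB10 was 2.06, 5.09 and 4.03% of PSMB7 in NT and 2.95, 5.28 and 4.86% in OXA, with a log2 difference of 0.28 (exact permutation p = 0.60, adjusted p = 0.60). Within same-numbered libraries the PSMB10 differences were 0.52, 0.055 and 0.27, all positive. Without NT 1, but with OXA 1 kept, the group difference was -0.096.

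**Figure D4:**
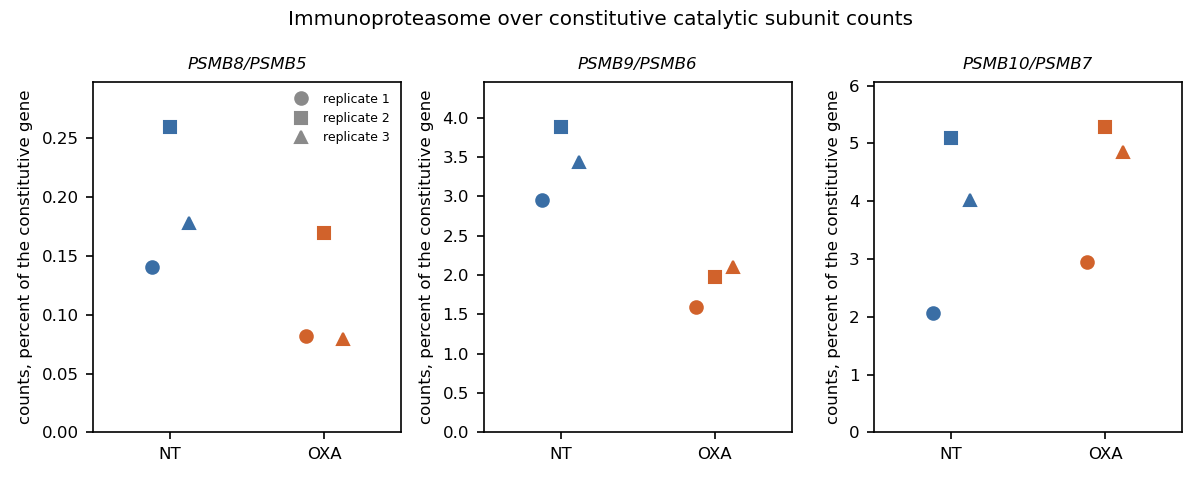
Counts of PSMB8, PSMB9 and PSMB10 as a percentage of the counts of the constitutive subunit each replaces (y axes, from 0), per library, with NT in blue, OXA in orange and the replicate number as the symbol. The PSMB9 to PSMB6 percentages of OXA (1.59 to 2.1) lie below those of NT (2.96 to 3.88), and the other 2 ratios overlap.

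Genes of peptide loading and interferon signalling, which are often regulated together with the immunoproteasome, gave 1 call. Of 7 such genes, TAP1 rose and 0 fell by edgeR, where 2.78% of all genes were called higher and 2.29% lower. TAP1, a subunit of the peptide transporter, went from 1583 ± 309 to 3143 ± 299 normalized counts (log2FC 0.99, SE 0.15, edgeR adjusted p = 0.0150, 0.00327 with the block) and passed in 2 of the 6 fits with a library left out, those without NT 1 or NT 3. The overlap of its gene span with that of PSMB9 on the opposite strand applies here too. TAP2, TAPBP, B2M, IRF1 and NLRC5 had log2FC values between -0.090 and 0.19, and none of these 5 passed edgeR's test.

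Genes that work with the proteasome without bearing a PSM symbol gave a median log2FC of 0.17 over 36 genes, with 1 called higher and 0 lower by edgeR and 11 and 1 with the block. Since 2.78% of all genes were called higher by edgeR, 1 of 36 is no more than the background in the fit without a block. With the block, the 11 higher and 1 lower of 36 stood beside 12.1% and 10.9% of all genes. The log2FC was positive for 77.8% of the 36, against 53.3% of all genes. UBB, which encodes ubiquitin, had a log2FC of 0.34 (edgeR adjusted p = 0.0686, DESeq2 adjusted p = 0.0139). The only one of the 36 called lower with the block was PITHD1, at -0.30 (adjusted p = 0.0237).

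Of the 11 genes of the NFE2L1 axis, edgeR, DESeq2 and limma-voom each called 0, and 1 was higher at an unadjusted p under 0.05. With the block 2 were higher and 0 lower. Among all genes, 10.7% were higher at that unadjusted p and 12.1% with the block. NFE2L1 itself averaged 10639 ± 1260 normalized counts in NT and 11056 ± 215 in OXA (log2FC 0.056, SE 0.10, edgeR adjusted p = 0.809). Its small Maf partners MAFF and MAFK had log2FC values of 0.48 and 0.54 and passed with the block (adjusted p = 0.0270 and 0.0223) but not without it, whereas MAFG was at -0.088. NFE2L1 is controlled largely after translation, which mRNA does not show. The core chaperone POMP had a log2FC of 0.20 (edgeR adjusted p = 0.425) and the ubiquitin receptor ADRM1 0.39 (edgeR adjusted p = 0.426, 0.0485 with the block). ADRM1 was at 0.15 without NT 1, 0.26 without OXA 2, 0.60 without NT 2 and 0.19 with the block and the trends removed, and MAFK ran from 0.30 without NT 1 or OXA 2 to 0.87 without NT 2.

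The COP9 signalosome, whose subunits are related in sequence to those of the lid, gave a median log2FC of 0.19 over 10 genes, close to the 0.18 of the proteasome. Here edgeR, DESeq2 and limma-voom each called 0, 3 genes were higher and 0 lower at an unadjusted p under 0.05, and 5 were higher with the block (COPS2, COPS5, COPS6, COPS7A and COPS9). In 4 of the 10 the OXA libraries all lay above the NT libraries. Among all genes, 10.7% were higher at that unadjusted p, 12.1% were higher with the block and 14.5% separated upward. The difference between these medians was not tested, so the positive median was not shown to be particular to the proteasome.

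Fold changes moved with base composition. Across the 46 members the log2FC and the GC content of the transcript had a Pearson r of 0.32 and a Spearman rho of 0.39, and across 13675 tested genes 0.24 and 0.28. These genes share the same 6 libraries, and the values are a description. With the block and the trends removed, r was -0.076 for the members and 0.013 for all genes. The small value over all genes follows from removing the GC trend itself and is no separate result. The constitutive beta genes kept positive values, between 0.14 (PSMB1) and 0.32 (PSMB2, PSMB4 and PSMB6), and all 7 passed. In this fit 31 members were higher, beside 22% of all genes, so the count is to be read against a much larger background.

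**Figure D5:**
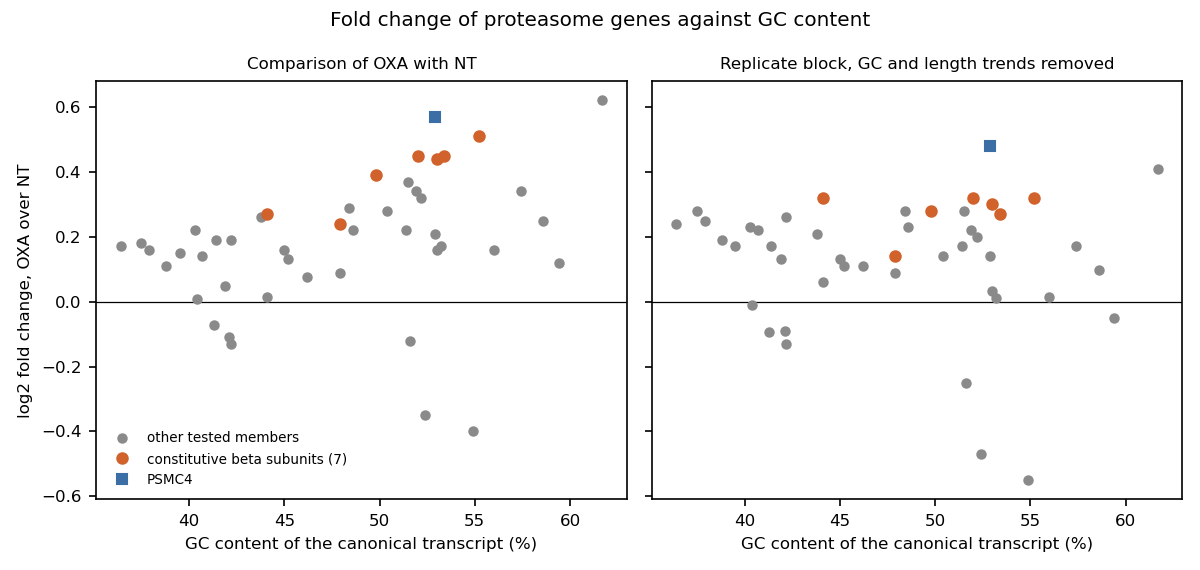
Log2FC of OXA over NT (y axis) against GC content of the canonical transcript in percent (x axis) for the 46 tested proteasome genes, in the comparison without a block (left) and with the replicate block and each library's GC and length trends removed (right). Orange points are the 7 constitutive beta subunits and the blue square is PSMC4; r is 0.32 on the left and -0.076 on the right.

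GENCODE names 44 pseudogenes after 17 of the members, 13 of them after PSMC1, 6 after PSME2 and 4 after PSMA6, and none of these pseudogenes is among the genes of the table. Reads shared with such copies could be counted differently, so the values of these 17 genes are less certain. PSMB3, PSMB7, PSMD4 and PSMD14 are among the 17, whereas PSMC4, PSMB5 and PSMB6 have no pseudogene named after them.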

How the data were processed

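RNA of 6 HCT116 libraries (3 NT, 3 OXA) was sequenced as paired reads with a stranded kit. The submitters' processing notes name Trimmomatic 0.32, STAR 2.7.5b, RSEM 1.3.3 and DESeq2 2.13, and the build GRCh38. The gene annotation and the strand setting of the counting are not given in the sources used here. The authors deposited a raw count per gene and library, all whole numbers, and a normalized value. Since RSEM is named, the counts may be rounded estimates. The deposited normalized signal equalled the raw count times a scaling value specific to gene and library (in NT 1, from 0.565 at the 1st to 1.99 at the 99th percentile of genes), and it served only for an alternative.

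Groups came from the sample labels. Genes were filtered with filterByExpr (minimum count 10, minimum total 15), normalized by TMM and tested with edgeR 4.0.16 (quasi-likelihood) in R 4.3.3, with Benjamini-Hochberg adjustment over the 13727 genes tested and a threshold of 0.05. Normalized counts are counts scaled by the TMM-adjusted library size. The standard error is the log2 fold change divided by the square root of F. The steps were tested on simulated counts. DESeq2 1.42.0, limma-voom (limma 3.58.1), other scalings and filters, a replicate block, removal of GC and length trends and leaving out each library were alternatives. The trends were fitted to each library's deviation from the mean of all 6, so a trend common to one group was removed too. Positions and lengths came from GENCODE 44. GC content was known for 99.6% of tested genes and all 48 members, and promoters came from RefSeq.

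Same-numbered libraries correlated in their deviations from group means (r = 0.547, 0.542 and 0.307 over tested genes), and differently numbered ones gave -0.467 to 0.0904. Deviations within a group cancel for each gene, so positive same-numbered values push the others down. The differently numbered values are therefore no separate evidence of pairing. For the block, the numbers were taken to pair the samples. Neither the labels nor the methods say what a number stands for. No libraries of a group agreed within sampling noise (chi-square per gene 19.23 to 83.07).

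The members and lists were chosen with earlier results of these data known. Values per library were given by rule for members called, the catalytic subunits, PSMD4, PSMD14 and the 3 highest and 3 lowest log2 fold changes. Of the other lists, genes called were to be named, and some of them are not reported here. Library values of PSMB1 to PSMB4, PSME1 and PSME2 and the ETS motif were added after the values or sequences had been seen. Counting error alone limits precision mainly for PSMB8, which has few counts, and PCR duplicates could not be told apart.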

Additional observations from a re-analysis of the deposited data

How the results depend on the processing

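Of 46 tested members, edgeR called 3 in the comparison without a block. It also called 3 with RLE, upper-quartile or no normalization factors, 2 with the authors' factors or no filter and 4 with a stricter filter, and limma-voom called 3. DESeq2 called 8, the replicate block 21 and the block with GC and length trends removed 34. The member median was 0.14 to 0.19 under these settings. For the 36 associated genes the count of 1 became 2 by DESeq2, 12 with the block and 20 with the trends also removed. For the COP9 signalosome 0 became 5 and 6, and for the 7 peptide loading and interferon genes 1 became 2 and 4. With each library left out in turn, 0 to 5 members, 0 to 1 associated genes, 0 to 0 COP9 genes and 0 to 1 peptide loading genes were called, and the member median was 0.11 (without NT 2) to 0.23. Counts of calls over all genes fell as well, to 66 higher and 19 lower without OXA 1, against 381 and 315, while 623 and 571 were called without NT 1. The cause was not tested. The PSMB10 to PSMB7 difference reversed to -0.096 without NT 1 and reached 0.55. The PSMB8 to PSMB5 difference ran from -1.21 to -0.61 and the PSMB9 to PSMB6 difference from -0.96 to -0.74. The median level per length of 87.2 became 61 with the longest transcript and 34.8 with the union of exons, because these lengths are greater. For the 9 members named by rule, no alternative reversed the direction. Over all genes, 348 were higher and 493 lower with upper-quartile factors, 350 and 511 with library totals, 363 and 479 with the stricter filter, 241 and 200 with the authors' factors, 633 and 635 by DESeq2, 1664 and 1493 with the block and 3022 and 3099 with the trends removed. Positive members were 38 of 46 with upper-quartile factors or library totals, where PSMA3 and PSMD1 changed sign, and 36 of 46 without NT 2. With library totals the groups separated in 16 members instead of 17. Depth limits what can be said of PSMB8, PSMA8 and PSMB11, which have few or no counts.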
